A study of Sus scrofa with 18 samples.

Results

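The positions described here are the 53 of 140 array positions whose level in pig longissimus dorsi, a large back muscle, was nearly the same at month 5 as at birth once both breeds were averaged. They were chosen by measured values: the change from month 0 to month 5, taken from the 12 age-loop arrays on a log2 scale and averaged over Landrace and Taihu pigs, had to lie between -0.2 and 0.2. Of the other positions, 47 rose and 40 fell by more than that. A course that ends near its start can be level throughout, can depart from the line between its ends, or can run up in one breed and down in the other, and the 53 positions were separated by tests of these features. Of these, 12 were put in a breed-opposed group, 13 in a group called transient here because their level departed from that line, 4 in a group whose courses bent differently in the breeds, and 24 in a flat group in which none of these tests made a call. Over all 140 positions the same groups held 16, 67, 9 and 48. Another scaling of the ratios, median centring, put 7, 7, 1 and 22 of the 53 positions in the same groups.

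RNA came from Landrace, a lean Western breed, and from Taihu, a Chinese breed known for its fat deposition, at ages of 0, 1, 2, 3, 4 and 5 months, where month 0 is the newborn piglet, so there were 12 combinations of breed and month. Each of the 18 arrays held 2 of these RNAs, the first-named one in Cy3 and the other in Cy5. In each breed 6 arrays closed a loop: months 1 to 5 were each hybridised with the preceding month, and month 0 with month 5. The remaining 6 arrays set Landrace against Taihu at each month, no pair was repeated with the dyes exchanged, and each combination entered 3 hybridisations. No treatment or genotype is given in the labels, and neither are the sex, the number of animals behind each RNA or whether animals were pooled. The p-values below therefore measure the spread between arrays, which may be technical, and the number of arrays limits the precision of every value.

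In pig muscle the number of fibres is largely set before birth, and growth afterwards comes mostly from enlargement of fibres and from nuclei added by satellite cells. After birth the developmental myosin isoforms give way to adult ones, fibres settle into slow oxidative and fast glycolytic types, and fat is laid down between the fibres as the animal matures. A transcript can therefore pass through a maximum or a minimum between birth and market age, and lean and fat breeds are often compared because they grow and store fat at different rates. Spots are known here by their place in the grid alone, and the tables used do not pair them with genes, so no gene, sequence or role is given. For the same reason the labelled tissue could not be checked against muscle markers. Positions are written as in the files (Sr01Sc01R05C08 is grid row 1, row 5, column 8 of a block).

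All 53 positions were detected, with a signal above the local background by at least 2 of its standard deviations in either dye on at least 9 arrays, and so were all 140. In 46 of the 53 the signal passed that limit in both dyes on all 18 arrays. On 1 or more arrays the scanner ceiling was reached by at least 2 spots in the same dye at 3 of the 53 positions and at 15 of the 140. One array stood apart in brightness: on the Landrace against Taihu array of month 3, grid row 2 correlated at 0.906 with the median array, while the other arrays and grid rows lay between 0.945 and 0.995. Its 70 positions in grid row 2 were dimmer than usual by a median of 0.80 on the log2 scale, and 8 of the members there were dimmer by more than 1. The dimming was shared by both dyes, and the main counts below are also given without this array.

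The values of the rule ran from -0.188 to 0.1996 over the 53 positions, with 33 above 0 and 20 below. They are a description of the choice and were not tested. Within single breeds the same measure spread further, from -0.82 to 0.47 in Landrace and from -0.39 to 0.94 in Taihu. It lay within 0.2 of 0 in both breeds at only 23 of the 53 positions, and in 33 the breeds had opposite signs, which averaging to near 0 favours. At the upper bound Sr01Sc01R07C09 (0.1996) and Sr01Sc01R02C07 (0.193) were just inside, and Sr01Sc01R09C03 (0.202) and Sr01Sc01R10C01 (0.210) were just outside. At the lower bound Sr01Sc01R09C09 (-0.188) and Sr01Sc01R08C07 (-0.181) were just inside, and Sr01Sc01R08C03 (-0.216) and Sr02Sc01R04C03 (-0.299) just outside.

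The choice also depends on how the dyes were balanced. The rule subtracts background and centres each array on its median, whereas the tests below used a correction of dye bias that varies with brightness (loess). With loess the mean change of the 53 positions ran from -0.33 to 0.53, and 36 of them stayed within 0.2 of 0, with 8 above and 9 below. Applying the same limits to the loess values gave 57 positions, and the 36 shared ones are 67.9% of the members and 63.2% of that other list. By group the loess mean change was within 0.2 of 0 at 10 of the 12 breed-opposed, 7 of the 13 transient, 2 of the 4 breed-differing and 17 of the 24 flat members. The other 6 transient members lay above 0.2, up to 0.53, so by that normalisation their level did not return to its start, and the other 7 flat members lay below -0.2.

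**Figure D1:**
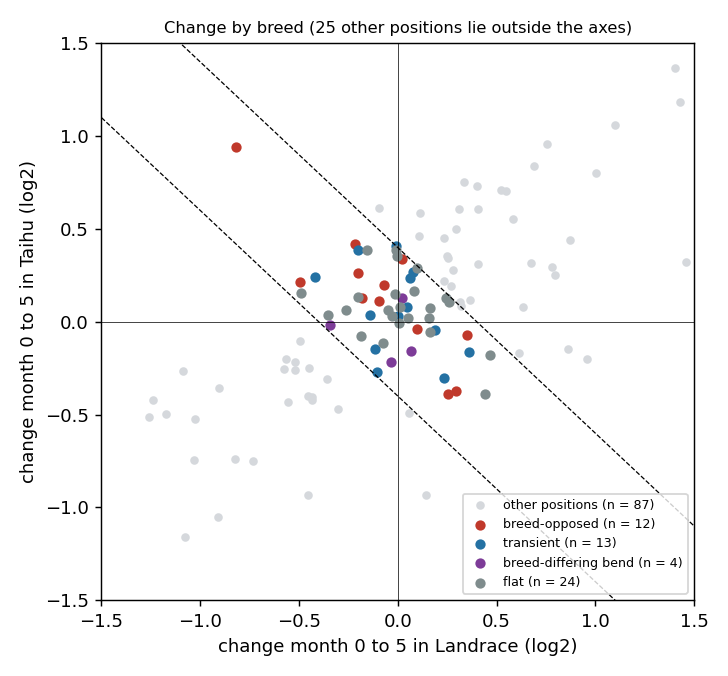
Change in log2 level from month 0 to month 5 in Landrace (horizontal axis) and Taihu (vertical axis), from the values the rule used, with 1 point per position. The dashed lines bound the band in which the mean of the breeds is within 0.2 of 0, members are coloured by course group, 87 other positions are grey, and 25 of those lie outside the axes. The position at -0.82 in Landrace and 0.94 in Taihu is farthest from the centre of the band.

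Because the net change chose the members, the course between its ends was tested with measures that do not contain it. A bend is the fitted level at a month minus the straight line drawn from month 0 to month 5, averaged over breeds, and a positive bend is called a hump and a negative one a trough. Bends hold neither the net change nor the dye term. The 4 bends of a position, at months 1 to 4, were tested together with limma's moderated F test, with Benjamini-Hochberg adjustment over all 140 positions. In this design the residuals hold only the disagreement between loop arrays and between-breed arrays about how the breed difference changed between months. An error common to corresponding arrays of the loops therefore does not enter these p-values.

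At 20 of the 53 positions (37.7%) the level departed from the line between its ends, against 54.3% of all 140 positions and 56 of the 87 others. The difference between these shares was not tested. There were 9 humps and 11 troughs, and the largest bend of these 20 was 0.14 to 0.75 in size with a median of 0.35 on the log2 scale. It fell at month 1 in 9 positions, at month 2 in 6, at month 3 in 3 and at month 4 in 2. The largest bend had the same sign in the Landrace loop and the Taihu loop at 18 of the 20 positions. Such a match is favoured, since the month and the positions were picked by the mean of both breeds. It was found at 43 of the 53 members and at 79 of the 87 others. Under median centring all 20 positions kept the sign of this bend and 17 were still called. Without the Landrace array of month 3 against month 2 the count was 13, and without the dim between-breed array of month 3 it was 21.

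Single months gave smaller counts of members. At month 1 the bend was called in 12 members (6 above the line and 6 below; 32.9% of all positions), and at month 2 in 10 (7 and 3; 30% of all). At month 3 there were 8 (3 and 5; 28.6% of all), and at month 4 there were 9 (5 and 4; 24.3% of all). These counts moved with single loop arrays. At month 1 the count was 7 without either array of month 1 against month 0. At month 2 it was 5, 4 and 6 without the Landrace arrays of month 2 against 1, 3 against 2 and 5 against 4, and 3, 3, 6, 4 and 5 without the Taihu arrays of month 1 against 0 through month 5 against 4. At month 3 it was 4 without the Landrace arrays of month 3 against 2 and 5 against 4, the Taihu arrays of month 3 against 2, 4 against 3 and 5 against 4 or the between-breed array of month 2, and it was 5 without the Taihu array of month 2 against 1 or the between-breed array of month 4. At month 4 it was 2 and 3 without the Landrace and Taihu arrays of month 5 against 4, and 16 without either array of month 0 against 5. Without the dim between-breed array the counts at months 1 to 4 were 14, 12, 7 and 10.

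**Figure D2:**
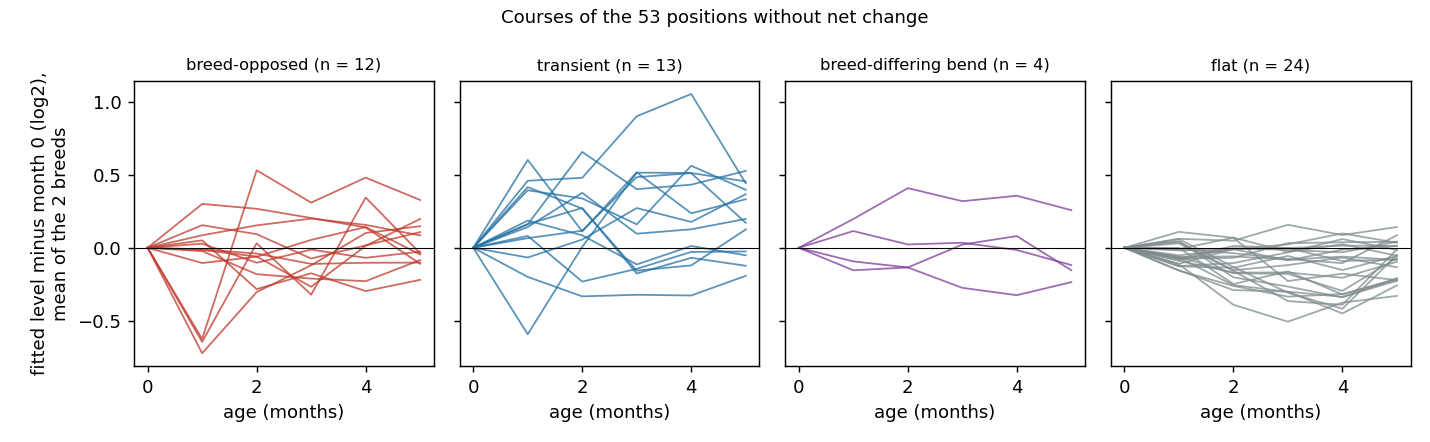
Fitted log2 level at each age relative to month 0, averaged over the breeds, with 1 line per position and 1 panel for each course group (12 breed-opposed, 13 transient, 4 with a bend that differed by breed, 24 flat). The range of a line over the months has a median of 0.194 in the flat group (0.083 to 0.507) and of 0.51 in the transient group (0.30 to 1.11).

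The largest hump was at Sr01Sc01R09C01, with a median signal of 13637. Its Landrace steps from month 1 against 0 to month 5 against 4 gave log2 ratios of 0.25, -0.18, 0.37, 0.36 and -0.30, and month 0 over month 5 gave -0.31. The Taihu steps gave 0.77, 0.32, 0.58, 0.05 and -0.83, and month 0 over month 5 gave -0.47. Taihu thus climbed to month 3 and Landrace, after a dip at month 2, to month 4, and both came down from month 4 to month 5. At month 4 its level stood 0.70 ± 0.067 (SE) above the line, a factor of 1.63, with an adjusted p of 0.000161 over the 4 bends in limma's F test. The bend there was 0.95 in Taihu and 0.45 in Landrace. Its loess mean change was 0.44, so by that normalisation the course did not return fully to its starting level.

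The second named hump, Sr01Sc01R05C01, came early. Month 1 over month 0 gave a log2 ratio of 0.63 in Landrace and 0.64 in Taihu, and month 2 over month 1 gave -0.48 and -0.43. Up to month 2 both breeds thus took nearly the same path. Later steps parted: month 3 over 2 gave 0.34 and 0.55, month 4 over 3 gave 0.07 and -0.56, and month 5 over 4 gave 0.21 and 0.05, in Landrace and Taihu respectively. The bend at month 1 was 0.54 ± 0.053 (SE; adjusted p = 2.12e-05 over the 4 bends, limma). The 2 ends differed by breed, with a fitted change of 0.59 ± 0.066 in Landrace and 0.08 ± 0.066 in Taihu (difference 0.51 ± 0.077, SE, adjusted p = 0.000959, limma).

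The deepest troughs were at month 1, and both positions also belong to the breed-opposed group. At Sr01Sc01R06C08 month 1 over month 0 gave -0.50 in Landrace and -0.43 in Taihu, and month 2 over month 1 gave 0.44 and 0.92. The bend at month 1 was -0.75 ± 0.086 (SE; adjusted p = 0.000625, limma), with -0.72 in Landrace and -0.79 in Taihu. Later the breeds parted, with steps of 0.71, 0.69 and 0.40 in Landrace and of 0.18, 0.27 and 0.21 in Taihu. All of these ratios include a dye term of 0.26 at this position, which pushes every step up.

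At Sr01Sc01R03C06 the trough at month 1 was -0.69 ± 0.041 (SE; adjusted p = 2.51e-07, limma). Month 1 over month 0 gave -0.42 in Landrace and -0.88 in Taihu. What followed differed by breed: in Taihu month 2 over month 1 gave 1.98 and month 3 over month 2 gave -1.16, while in Landrace the same steps gave 0.28 and 0.67. The between-breed arrays, a separate set, showed the same month, since Landrace over Taihu was -1.32 at month 2 and -0.17, 0.41, 0.46, 0.34 and 0.50 at months 0, 1, 3, 4 and 5. The fitted Taihu level at month 2 was 1.12 ± 0.062 (SE) above its month 0, and the Landrace level was at -0.06 relative to its own.

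**Figure D3:**
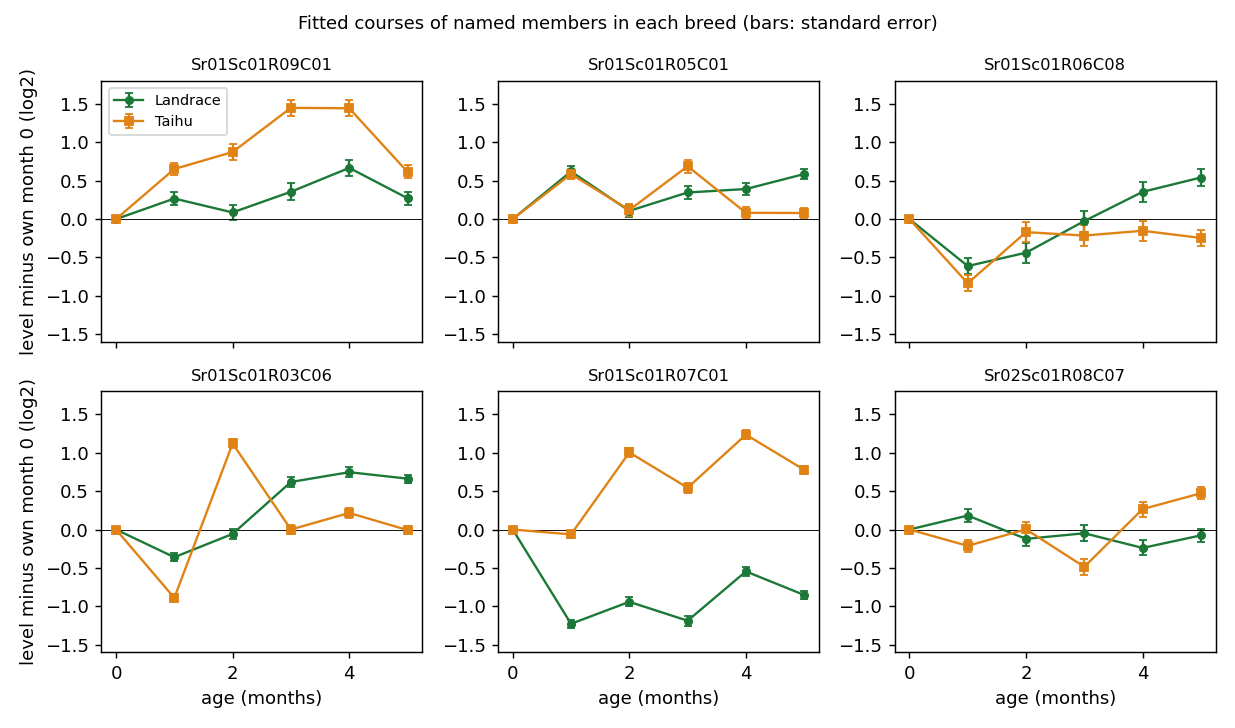
Fitted log2 level in Landrace (circles) and Taihu (squares) against age for 6 named positions, each breed relative to its own month 0, with bars of 1 standard error. At Sr01Sc01R03C06 the Taihu level stands at 1.12 at month 2 and at 0.00 at month 3, and at Sr01Sc01R07C01 Landrace lies below and Taihu above its own month 0 from month 2 on.

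Whether the bends of one breed recur in the other was described with the loops alone, which share no RNA and no hybridisation. Over the 53 members the month 1 bend of the Landrace loop correlated with that of the Taihu loop at a Pearson r of 0.60 (Spearman rho 0.43), with the same sign at 35. The month 2 bends had an r of -0.22 (rho -0.13) with the same sign at 24, the month 3 bends 0.15 (rho 0.14) with 30, and the month 4 bends 0.45 (rho 0.40) with 29. Over the other 87 positions r was 0.82, 0.68, 0.68 and 0.42 at months 1 to 4. These are descriptions across positions, which are not independent: the points share arrays and each loop's months share RNAs.

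**Figure D4:**
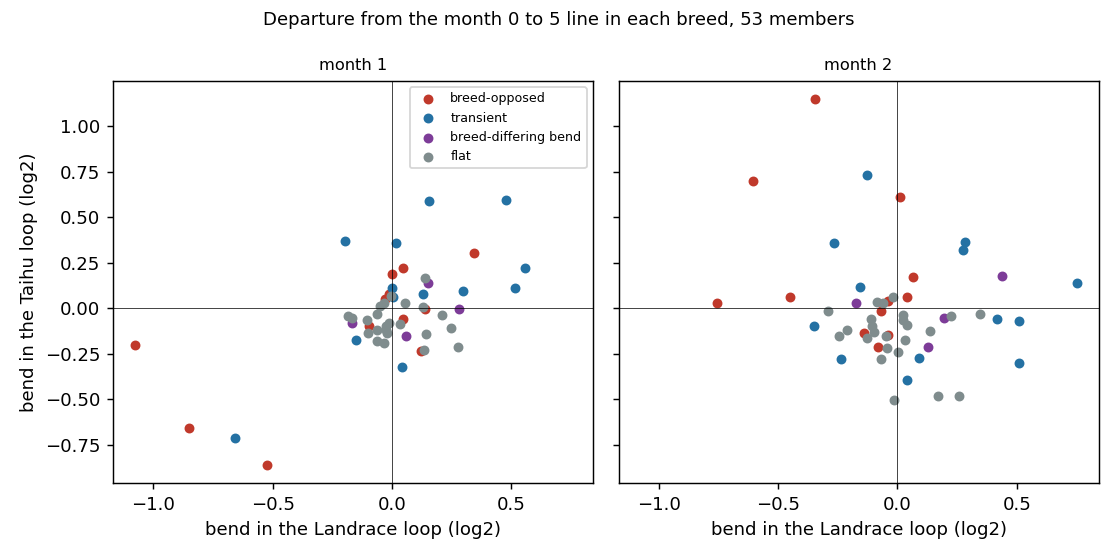
Bend of each of the 53 members in the Landrace loop (horizontal axis, log2) against the Taihu loop (vertical axis, log2) at month 1 and at month 2, coloured by course group. At month 1 the deepest troughs lie below 0 in both loops (r = 0.60), and at month 2 the points show no such alignment (r = -0.22).

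The change from month 0 to month 5 was next compared between breeds, which the rule did not use, since it held only their mean. The difference of the changes, Landrace minus Taihu, was called at 18 of the 53 members (34%), close to the 35% of all 140 positions. Landrace lay above Taihu in 7 of them (16.4% of all positions) and below in 11 (18.6% of all). In size the called differences ran from 0.20 to 1.63 on the log2 scale, with a median standard error of 0.097 over positions. Under median centring 12 of the 18 were still called, and without the dim between-breed array the count was 16 (7 above and 9 below).

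A called difference with fitted changes of opposite sign put a member in the breed-opposed group, and 12 members met this (22.6%), against 11.4% of all positions. Opposite signs follow in part from the rule, since the mean of the 2 changes is near 0 in members. In 4 of the 12 Landrace lay above Taihu, and in 8 below. The 95% intervals of both breeds' changes excluded 0 at 2 of the 12 positions. They excluded it for Landrace only at 6, for Taihu only at 3 and for neither at 1, so at most of them a clear change in 1 breed stood beside a small one of the other sign. The sign of the breed difference itself was not the same at month 5 as at month 0 in 9 of the 12. The count was 6 without the Taihu array of month 0 against month 5 and 10 without the dim between-breed array.

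The widest gap was at Sr01Sc01R07C01, of medium brightness (median signal 750). Landrace steps from month 1 to month 5 gave -1.45, 0.10, -0.46, 0.46 and -0.51, with 0.64 for month 0 over month 5. Taihu steps gave -0.25, 0.84, -0.66, 0.47 and -0.66, with -0.98 for month 0 over month 5. Landrace over Taihu was 0.67 at month 0 and -0.45, -1.30, -1.03, -1.13 and -0.96 at months 1 to 5. All of these ratios include a dye term that pushes them down. After its removal Landrace over Taihu was 0.87 at month 0 and -0.25, -1.09, -0.82, -0.92 and -0.76 at months 1 to 5. The breed that was higher at birth was thus the lower one at every later age. The fitted change was -0.85 ± 0.049 (SE) in Landrace and 0.78 ± 0.049 in Taihu. The difference was -1.63 ± 0.057 (adjusted p = 6.33e-08, limma), and it was -1.85 under median centring.

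The other named member with Landrace below Taihu was Sr02Sc01R08C01. It changed by -0.50 ± 0.080 (SE) in Landrace and by 0.06 ± 0.080 in Taihu, a difference of -0.56 ± 0.092 (adjusted p = 0.0015, limma). Landrace over Taihu gave -0.12 at month 0 and -0.26, -0.77, -0.32, -0.48 and -0.53 at months 1 to 5, before removal of a dye term of -0.29. After removal the fitted breed difference was 0.28 at month 0 and -0.28 at month 5.

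Above Taihu, the largest differences were those of the trough positions. Sr01Sc01R06C08 changed by 0.54 ± 0.107 (SE) in Landrace and by -0.25 ± 0.107 in Taihu, a difference of 0.79 ± 0.124 (adjusted p = 0.00117, limma). Sr01Sc01R03C06 changed by 0.66 ± 0.051 in Landrace and by -0.01 ± 0.051 in Taihu, a difference of 0.67 ± 0.059 (adjusted p = 6.25e-05, limma). The second of these has its opposite sign from a Taihu change smaller than its standard error. Without the dye term the calls at Sr01Sc01R06C08 and Sr02Sc01R08C01 were lost (adjusted p = 0.125 and 0.338, limma), as was the trough call at Sr01Sc01R06C08 (adjusted p = 0.158).

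This difference can be had from array sets with no hybridisation in common, the 12 loop arrays and the between-breed arrays of months 0 and 5, although they may hold the same RNAs. Over the 53 members they correlated at a Pearson r of 0.81 (Spearman rho 0.69), with the same sign at 38, and over the other 87 positions at 0.47 (rho 0.45), with the same sign at 62. All 18 called members had the same sign in both sets (r = 0.93), from which the call itself was made. Over the 35 members without that call r was 0.25 (rho 0.22), with the same sign at 20.

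**Figure D5:**
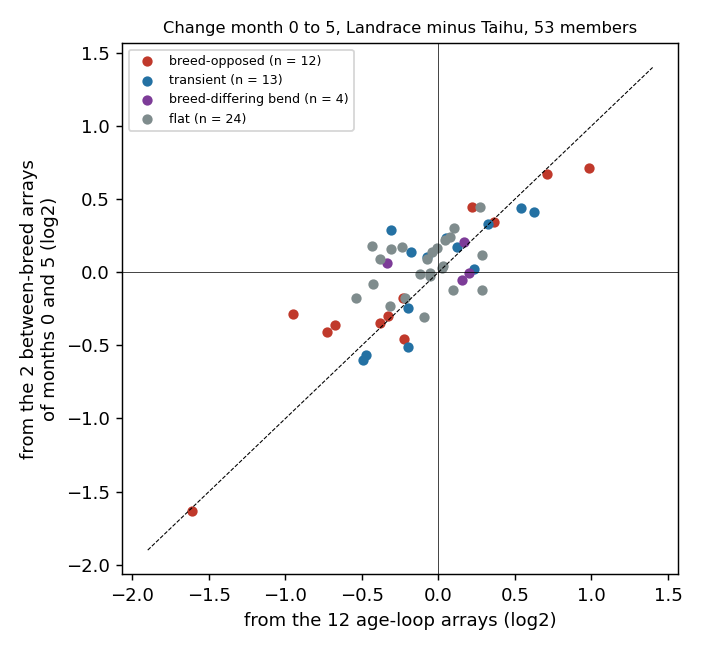
Change from month 0 to month 5, Landrace minus Taihu, from the 12 age-loop arrays (horizontal axis, log2) and from the 2 between-breed arrays of months 0 and 5 (vertical axis, log2) for the 53 members, coloured by course group. The dashed line marks equal values, and the breed-opposed member Sr01Sc01R07C01 lies at the lower left on both axes.

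Courses that bent differently in the breeds were found at 21 of the 53 members (39.6%), against 47.9% of all positions (limma's F test over the 4 differences in bends). The largest difference fell at month 2 in 10 of them, at month 3 in 5, at month 1 in 4 and at month 4 in 2. Landrace lay above Taihu there in 10 and below in 11, the sizes ran from 0.29 to 1.45, and in 14 of the 21 the breeds' bends had opposite signs. Without the dim between-breed array the count was 19.

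Below Taihu the largest differences were at month 2 in positions already described. Sr01Sc01R03C06 had a bend of -0.32 in Landrace and 1.12 in Taihu, a difference of -1.45 ± 0.060 (SE; adjusted p = 1.70e-07 over the 4 differences, limma). Sr01Sc01R07C01 had -0.60 and 0.69, a difference of -1.29 ± 0.058 (adjusted p = 2.85e-06).

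Above Taihu the largest was Sr02Sc01R08C07 at month 3, where the bend was -0.77 in Taihu and Landrace lay on its line. Its Taihu steps gave -0.30, 0.03, -0.67, 0.59 and 0.00 from month 1 to month 5, and its Landrace steps -0.07, -0.46, -0.09, -0.37 and 0.03. These ratios include a dye term that pushes every step down. After its removal the Taihu steps were -0.13, 0.20, -0.50, 0.76 and 0.17, and the Landrace steps 0.10, -0.29, 0.08, -0.20 and 0.20. Taihu thus dipped at month 3 and returned at month 4. The difference was 0.77 ± 0.095 (SE; adjusted p = 0.000235, limma). This position is in grid row 2 and its signals ranged from 156 to 3107, with the lowest on the dim array. Without that array the difference was 0.79 (adjusted p = 0.00223). The other was Sr01Sc01R09C09 at month 2, with a bend of 0.42 in Landrace and -0.21 in Taihu (difference 0.63 ± 0.087, SE, adjusted p = 0.00105, limma).

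The mean level over all 6 months differed between breeds at 20 of the 53 members (37.7%), against 44.3% of all positions. It was higher in Landrace at 13 (26.4% of all positions) and lower at 7 (17.9% of all). Landrace was in Cy3 on all 6 between-breed arrays, so every breed difference in level rests on a dye term that only the loop arrays estimate. Among the members that term ran from -0.44 to 1.23, and without it 22 members were called. Median centring called 23 members, 18 higher and 5 lower, so the split depends on the scaling, and 14 of the 20 were called by both. The differences were 0.12 to 0.49 in size, with a median standard error of 0.053 over positions. The sign was the same in all 6 months at 7 of the 20 members and in at least 5 months at 14. By group the 20 comprised 5 of the breed-opposed, 8 of the transient, 1 of the breed-differing and 6 of the flat members. The count was 12 without the between-breed array of month 5 and 17 without the dim one of month 3.

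Lower in Landrace were Sr01Sc01R07C01 (-0.49 ± 0.031, SE, adjusted p = 4.31e-06, limma), in spite of its higher level at birth, and Sr02Sc01R08C07 (-0.39 ± 0.050, adjusted p = 0.000291). In the latter the fitted difference was -0.34, 0.06, -0.46, 0.10, -0.84 and -0.89 at months 0 to 5, so the gap was widest at the last ages and close to 0 at months 1 and 3. Higher in Landrace was Sr02Sc01R05C04 (0.25 ± 0.050, adjusted p = 0.00379), with fitted differences of 0.17, 0.30, 0.45, 0.25, 0.09 and 0.25, all above 0.

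Sr02Sc01R02C09 was also higher in Landrace, by 0.31 ± 0.092 (SE; adjusted p = 0.0257, limma). Its log2 ratios on all 18 arrays were between 0.93 and 1.74 whichever RNA was in Cy3, which the fit takes up as a dye term of 1.23, the highest among the members. The between-breed ratios of 1.43 to 1.74 are therefore read only after that term is removed. The call was lost when any of 6 single arrays was left out: the between-breed arrays of months 0, 2, 4 and 5, Landrace month 4 against 3 and Taihu month 3 against 2, with adjusted p-values from 0.0509 to 0.0833.

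Month by month, the breed difference was called at 17, 19, 18, 10, 15 and 15 members at months 0 to 5, against 37.9%, 39.3%, 38.6%, 28.6%, 39.3% and 30% of all positions. At least 1 month was called in 36 of the 53, against 75% of all, and 11 members were higher in Landrace in one month and lower in another (25.7% of all positions). Month 3 had the fewest calls both among the members and over all positions. Without the dim array of that month the counts were 16, 16, 18, 7, 14 and 14 at months 0 to 5, 35 members had at least 1 call, and 10 had calls in both directions.

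No course call was made at 24 of the 53 members (45.3%), against 34.3% of all positions. These flat members were dim, with a median signal of 383 against 1810 in the transient group, 772 in the breed-opposed group and 559 over all members. Only 2 of the 24 lay above the all-position median of 1009, and both were saturated, whereas 12 of the 20 members with a called bend did. Whether the low signal had a part in the missing calls was not tested. Without the dim array there were 26 flat members.

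A missing call does not show that a level stayed the same, so the intervals are given. Among the 22 flat members that were never saturated, the fitted level, averaged over breeds, ranged over 0.083 to 0.479 across the 6 months, with a median of 0.188. The 95% intervals of all 4 bends lay within 0.3 of 0 at 10 of the 22 and within 0.5 at 20. At the remaining ones the widest interval reached up to 0.68. The lowest adjusted p for bends in the flat group was 0.0602, and 3 of its members had an unadjusted p under 0.05. Within a single breed the range exceeded 0.5 at 4 flat members.

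The most level course belonged to Sr01Sc01R03C07, with a range of 0.083. Its Landrace steps gave -0.07, -0.03, 0.10, 0.01 and -0.05, its Taihu steps -0.05, 0.05, -0.14, 0.04 and 0.01, and Landrace over Taihu gave 0.03, 0.09, -0.04, -0.01, 0.12 and 0.12 at months 0 to 5. The ratio farthest from 0 was thus the Taihu step to month 3, at -0.14. Next came Sr01Sc01R07C07 with a range of 0.088 and the lowest median signal of all members, 115, where values are compressed by the offset that the background correction adds.

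At the other end of the flat group, Sr02Sc01R09C04 had a range of 0.51 but was at the scanner ceiling on 15 of 18 arrays, so its course is not resolved. Sr01Sc01R08C08 had a range of 0.48, with the lowest level at month 4 (-0.42 relative to month 0). Its bend at month 4 was -0.38 in Landrace and -0.37 in Taihu, and its adjusted p over the 4 bends was 0.169 (limma). Like Sr02Sc01R02C09 it carried a large dye term, 1.16.

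Beyond the measure that chose them, the 53 members were dimmer than the other 87 positions, with median signals of 559 and 1853, and 16 of them lay above the all-position median of 1009. They were spread over both grid rows, 29 in the first and 24 in the second, each of which holds 70 positions. Over the 6 months the mean of the breeds ranged over a median of 0.33 in the members and 0.74 in the others, a difference that the rule favours. In 3 members that range, taken from the loess fit, exceeded 1 on the log2 scale, up to 1.16. By the rule the ends of these courses were nearly level. By loess their mean change was 0.33 at Sr01Sc01R03C06, 0.44 at Sr01Sc01R09C01 and 0.46 at Sr02Sc01R09C03, so the large range and the level ends belong to different scalings.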

How the data were processed

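The authors' deposited files hold spot intensities on a linear scale, a file per dye and array, not normalized, written by quantification software version 5.1, per the file headers; the local background and its standard deviation are in further columns. The sources used here do not give the scanner or the number of animals. In each block 12 repeated addresses were left out, and the 4 blocks of a grid row were averaged. Members were taken from background-subtracted signals with a floor of 50, as log2 Cy3/Cy5 centred on each array's median. Tests used limma 3.58.1 in R 4.3.3: normexp with an offset of 50, loess within arrays, and a fit of 12 breed and month conditions with 1 dye term per position, which left 6 residual degrees of freedom, eBayes, Benjamini-Hochberg adjustment over 140 positions and a threshold of 0.05. A position was counted as saturated on an array where at least 2 of its spots had a median signal of 65535 in the same dye. The procedure was run on simulated ratios with independent noise on each array, which cannot show the effect of an error common to both loops. Groups were assigned in the order breed-opposed, transient, breed-differing bend and flat. Positions named are, per comparison, up to 2 called members in each direction with the largest estimate, never saturated, plus the 2 flat members with the smallest and the 2 with the largest range and those beside the bounds. The members and lists were chosen with earlier results of these data known. The planned gene lists and cell type markers were not used, because positions are not paired with genes. The authors' value table was not used, since its running numbers could not be tied to positions. Figures were drawn with matplotlib 3.10.9 under Python 3.11.15.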

Additional observations from a re-analysis of the deposited data

Results flagged for a closer look

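These named positions stood out because their effect under one contrast differed between the breeds by the test of that difference. For the change from month 0 to month 5, Landrace minus Taihu, the values were 0.79 at Sr01Sc01R06C08, 0.67 at Sr01Sc01R03C06, 0.51 at Sr01Sc01R05C01, -0.34 at Sr01Sc01R09C01, -0.55 at Sr02Sc01R08C07, -0.56 at Sr02Sc01R08C01 and -1.63 at Sr01Sc01R07C01. For the largest bend, Landrace minus Taihu, they were 0.77 at Sr02Sc01R08C07, 0.63 at Sr01Sc01R09C09, -1.29 at Sr01Sc01R07C01 and -1.45 at Sr01Sc01R03C06.

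The 12 addresses repeated at the start of every block lay outside all comparisons, and 10 of them were detected on all 18 arrays. By the same rule 4 of the 12 had a mean change within 0.2 of 0.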

How the results depend on the processing

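None of the 16 called effects at named positions changed its sign in any alternative run that fitted it. The calls were less stable than the signs. With single arrays left out, a call was kept 282 times and lost 6 times, each time for the mean breed difference at Sr02Sc01R02C09. Over the other alternative runs a call was kept 168 times and lost 16 times. Counts have no direction, and mean changes from month 0 to month 5 were outside this check. Such a mean change did differ in sign between loess and median centring at Sr01Sc01R03C06 (0.33 and -0.07) and Sr01Sc01R06C08 (0.15 and -0.04). The limits of these data are the single array per pair of RNAs, the unknown number of animals, the absence of exchanged dyes and the lack of gene names for positions. With members within 0.1, which leaves 30 positions, the counts called were 12 for a bend, 13 for the breed difference in bends, 13 for the mean breed difference, 21 for a breed difference in any month and 12 flat, with 7, 4 and 5 for the bends at months 1, 3 and 4. Without the dye term the counts were 8 for a bend, 3 breed-opposed, 7 for the change difference, 11 for the breed difference in bends, 19 for any month and 40 flat, with 7, 4, 2 and 3 for the bends at months 1 to 4. With the age-loop arrays alone, which leave 1 residual degree of freedom, 5 members had a called bend and 48 were flat, with 7 and 2 for the bends at months 1 and 3. In that fit limma called 0 members for the change difference, so 0 were breed-opposed, 0 for the breed difference in bends and 0 for the bends at months 2 and 4, where 16, 8, 13 and 15 members had an unadjusted p under 0.05. Over all 140 positions 50, 36, 50 and 45 had an unadjusted p under 0.05 in the same tests. Median centring gave 4 for the bend at month 2. Array weights gave 7 breed-opposed and 25 for the bend at month 4. Block 1 alone gave 20 for the bend at month 1. Block 2 alone gave 7 breed-opposed and 13 for the mean breed difference. Block 3 alone gave 11 for a bend, 13 for the breed difference in bends, 12 for the mean breed difference, 22 for any month, and 4, 2 and 4 for the bends at months 2 to 4. Block 4 alone gave 12 for a bend, 7 breed-opposed, and 3, 3 and 4 for the bends at months 2 to 4. Leaving out both arrays of month 0 against 5, an alternative chosen after seeing the data, gave 16 for the bend at month 4. Some of these runs hold fewer members or fewer arrays, and the cause of these shifts was not tested.

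Leaving out each array in turn gave 13 to 24 members with a called bend, 6 to 12 breed-opposed, 12 to 19 for the change difference, 15 to 26 for the breed difference in bends, 12 to 23 for the mean breed difference, 30 to 39 for any month and 20 to 32 flat. The bends at months 1 to 4 gave 7 to 14, 3 to 13, 4 to 10 and 2 to 16. No paired analysis was possible because each pair of RNAs has 1 array and the labels give no replicate numbers. The mean breed difference could not be had from the loops alone, and the authors' value table was not run. The other alternatives run, a normexp offset of 10, saturated or dim positions left out, a wider band of 0.3 and members from loess values, kept every count within 1.5 times.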
